A study of Mus musculus with 24 samples.

Results

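Uchl1 and 9 other mouse genes (Nol3, Afp, Kif1a, Mllt11, Zwint, Trim6, Chpf2, E2f6 and Dnmt3l) were followed through 24 messenger RNA libraries of peritoneal macrophages, the resident phagocytes of the abdominal cavity. These 10 genes, out of 54532 features counted and 14692 tested, were chosen by the size of the rise of their messenger RNA with ONX-0914, a compound that inhibits LMP7 (PSMB8), a catalytic subunit of the immunoproteasome. The rise with the inhibitor therefore chose the genes, and it is described below without a test. The macrophages were unpolarized (M0), polarized with LPS and IFN-γ (M1) or polarized with IL4 (M2), and each state was cultured without inhibitor or with ONX-0914. Each of these 6 groups held 4 independent replicates. Every replicate pooled the cells of 2 to 3 mice to reach 50000 cells, so differences between single mice cannot be seen. No genotype or transgene is named for any group, and the sources used here do not give the strain, sex or age of the mice, the dose of ONX-0914 or the times of treatment.

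The proteasome degrades proteins that carry chains of ubiquitin, and immune cells carry a variant of it, the immunoproteasome, whose catalytic subunits are replaced by cytokine-induced ones. Inhibition of proteasomes is known to raise the transcription of proteasome subunit genes and of other genes of protein quality control. The 10 genes have no single function. Uchl1 encodes a ubiquitin hydrolase that is abundant in neurons, Nol3 an inhibitor of apoptosis known from heart and muscle, and Afp the serum protein alpha-fetoprotein of fetal liver. Kif1a encodes a kinesin motor of axons, Mllt11 a small protein first found fused in leukaemia, and Zwint a kinetochore protein. Trim6 encodes a ubiquitin ligase, Chpf2 an enzyme that lengthens chondroitin sulfate chains, E2f6 a repressive member of the E2F family, and Dnmt3l a cofactor of DNA methylation in germ cells.

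Levels are given as TMM-scaled CPM, counts per 1e6 counts after trimmed-mean scaling of the libraries. The libraries held 18.2 to 22.9 times 1e6 counts. The macrophage markers fitted the labelled cell type: all 9 (Adgre1, Csf1r, Cd68, Itgam, Lyz2, Mertk, Cd14, Fcgr1 and Gata6) were at 1 CPM or more in every group, with a summed level of 9365 to 14762 CPM per library. One library was unlike the rest of its group: in M1 replicate 2 mitochondrial genes took 0.300% of the counts and the 10 most counted genes 13.1%, while the 3 remaining M1 libraries had 1.07% to 1.14% and 10.3% to 10.4%. Without it, no log2 value of the 10 genes below moved by more than 0.13. More of all genes then passed an adjusted p under 0.05 with ONX-0914: 4340 in place of 3079 in M0, 6804 in place of 6514 in M1 and 6384 in place of 5345 in M2. The shares of all genes below are those with this library kept.

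The selection was described as genes mostly near silent in macrophages, and the counts bore this out for 3 of the 10. Nol3, Afp and Dnmt3l had means under 1 CPM in each of the 3 states without inhibitor, and the other 7 were above 1 CPM in each. Over the 12 libraries without inhibitor alone, those 3 would not have passed the filter on low counts and 7 would have. Nol3, Afp and Dnmt3l were thus tested only because of their level with the inhibitor. Zwint, Chpf2 and E2f6 were at 20.6 to 83.6 CPM without inhibitor.

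Promoter sequences are shown for 3 genes: Uchl1, which reached the highest level per kb, and Zwint and Chpf2, the pair whose levels were most alike over the libraries. The sequences are those of RefSeq on GRCm38.p6, from 250 bases before to 50 bases after the transcript start, on the strand of the gene. Of the 10 genes, 9 matched an entry, with 13 promoters in all, and Nol3 did not. Capitals mark the match to the heat shock element unit GAANNTTC.
Uchl1 (chr5:66675871-66676170, plus strand): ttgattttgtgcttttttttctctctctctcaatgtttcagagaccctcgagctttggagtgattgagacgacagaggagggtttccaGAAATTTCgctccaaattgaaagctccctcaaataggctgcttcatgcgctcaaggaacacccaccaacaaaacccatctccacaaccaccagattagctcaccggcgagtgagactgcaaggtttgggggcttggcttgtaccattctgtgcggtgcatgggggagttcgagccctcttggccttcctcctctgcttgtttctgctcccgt
Zwint (chr10:72654596-72654895, plus strand): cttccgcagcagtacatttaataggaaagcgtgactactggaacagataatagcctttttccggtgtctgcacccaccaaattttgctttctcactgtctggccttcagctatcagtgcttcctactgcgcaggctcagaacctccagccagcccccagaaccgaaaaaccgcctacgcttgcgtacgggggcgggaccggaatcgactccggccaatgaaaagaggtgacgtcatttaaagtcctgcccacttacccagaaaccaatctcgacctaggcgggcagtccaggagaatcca
Chpf2 (chr5:24586494-24586793, plus strand): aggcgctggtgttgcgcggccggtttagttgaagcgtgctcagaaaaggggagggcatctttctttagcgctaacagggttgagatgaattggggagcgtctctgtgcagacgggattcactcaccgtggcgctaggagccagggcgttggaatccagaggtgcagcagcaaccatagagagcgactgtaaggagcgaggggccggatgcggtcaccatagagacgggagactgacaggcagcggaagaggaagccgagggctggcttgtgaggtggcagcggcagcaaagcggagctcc

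The sequences had little in common among the motifs searched. Each motif was searched as letters on both strands, and none overlapped another match in these promoters. The heat shock element unit GAANNTTC matched once, in Uchl1 at position -162 from the start, and 7.86% of all 32817 mouse promoters hold it. The E-box CACGTG matched in 1 of 2 Kif1a promoters, at -116, and in 1 of 3 Dnmt3l promoters, at -44, and 7.15% of all promoters hold it. The antioxidant response element core TGACNNNGC, the AP-1 motif TGAGTCA and the E2F motif TTCCCGC matched in 0 of the 13 promoters, against 12.4%, 5.2% and 4.6% of all promoters. The promoters also differed in base composition: the CpG count in 300 bases was 44 in Mllt11, 29 in E2f6, 20 in Chpf2 and 16 in Zwint, but 9 in Uchl1, 8 in Trim6 and 3 in Afp, beside a median of 7 over all promoters.

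With the inhibitor, every one of the 10 genes was higher in all 4 treated libraries than in all 4 untreated libraries of the same state, in M0, M1 and M2. The rise chose the genes, so this count shows nothing beyond the choice. Of all genes tested, 12.3% in M0, 13.9% in M1 and 18.7% in M2 had every treated library above every untreated one. Of all 14692 genes tested, edgeR's quasi-likelihood test with Benjamini-Hochberg adjustment called 9.54% higher and 11.4% lower with ONX-0914 in M0, 16.6% higher and 27.7% lower in M1, and 17.6% higher and 18.8% lower in M2. For 8 of the 10 genes, all 12 treated libraries were also above all 12 untreated ones, whatever the state, beside 1.6% of all genes tested. The rise that chose the genes enters this count too. The exceptions were Trim6 and Dnmt3l, whose levels in untreated M1 cells reached those in treated M0 cells. As log2 changes, the 10 genes had a median of 2.11 in M0, 2.51 in M1 and 2.66 in M2, beside medians over all genes tested of -0.00082, -0.081 and -0.0012.

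**Figure D1:**
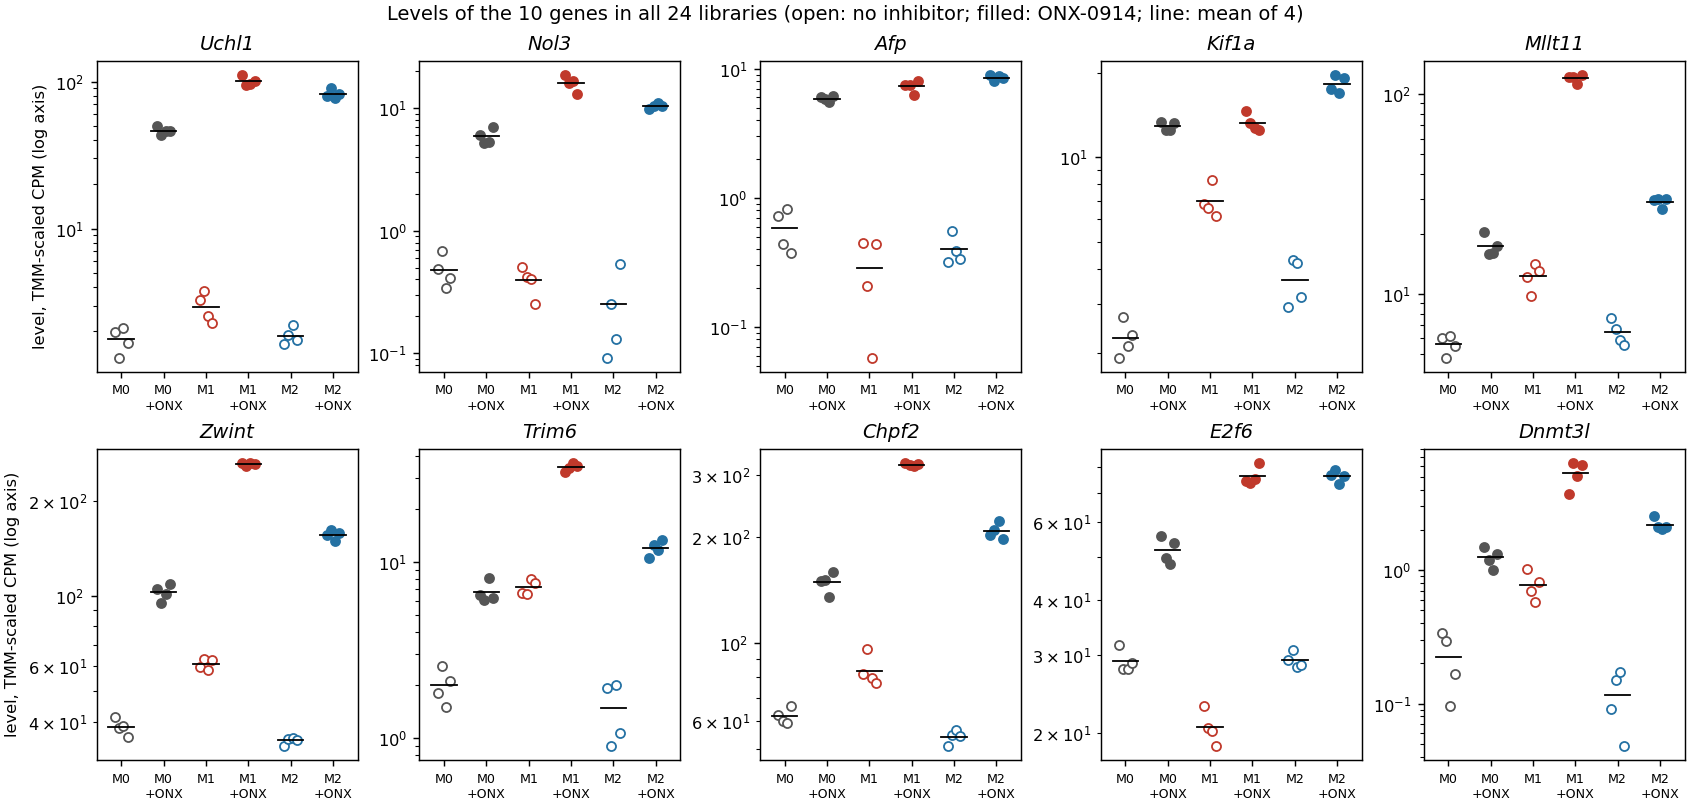
Levels of the 10 genes in each library, as TMM-scaled CPM on a log axis that differs between panels. Open circles are libraries without inhibitor, filled circles libraries with ONX-0914, and lines the mean of 4. In 8 panels every filled circle lies above every open circle, and in Trim6 and Dnmt3l the open M1 circles overlap the filled M0 circles.

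Uchl1 (ENSMUSG00000029223, GRCm38 chromosome 5, 66676091 to 66687234, plus strand) removes small adducts from the end of ubiquitin and binds monoubiquitin. In M0 cells without inhibitor its 4 libraries were at 1.98, 1.32, 2.13 and 1.66 CPM, and with ONX-0914 at 49.5, 43.4, 46.2 and 46.4 CPM. In M1 cells they were at 3.25, 3.74, 2.54 and 2.27 CPM without and at 110.5, 94.9, 97.0 and 100.5 CPM with the inhibitor. Treated and untreated libraries were far apart in both states. In M2 cells the libraries were at 1.65, 1.90, 2.21 and 1.74 CPM without and at 79.9, 91.1, 76.9 and 82.0 CPM with the inhibitor. The log2 changes were 4.71 ± 0.113 (SE, n = 4 against 4) in M0, 5.10 ± 0.108 in M1 and 5.45 ± 0.111 in M2. Ranked by fitted rise among the 14692 genes tested, Uchl1 was at place 2 in M0, 6 in M1 and 3 in M2. Of the genes ahead of it, the noncoding RNA 5033406O09Rik was at place 1 in each state, with 7.02, 11.4 and 9.73 CPM under the inhibitor. An antisense gene, Uchl1os, overlaps Uchl1 over 408 bp, and its mean was 0.0125 CPM in treated M1 cells and 0 in the 5 other groups.

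Nol3 (ENSMUSG00000014776, chromosome 8, 105276140 to 105281939, plus strand), which binds caspases and death receptors through its CARD domain, went from near absence to a moderate level. Its M0 libraries were at 0.482, 0.687, 0.338 and 0.414 CPM without inhibitor and at 6.10, 5.24, 5.34 and 7.02 CPM with it. In M1 cells they were at 0.509, 0.415, 0.404 and 0.252 CPM and then at 18.6, 16.2, 16.6 and 13.1 CPM. In M2 cells they were at 0.0917, 0.250, 0.130 and 0.531 CPM and then at 9.83, 10.3, 11.1 and 10.4 CPM. The treated M1 libraries were the highest and the treated M0 libraries the lowest of the treated ones, with no overlap between the 3 treated groups. The log2 changes were 3.62 ± 0.218 in M0, 5.33 ± 0.222 in M1 and 5.37 ± 0.233 in M2 (SE). The untreated M2 libraries held 2 to 11 counts each, and without M2 replicate 4, which had the 11 counts, the M2 value was 6.02.

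Afp (ENSMUSG00000054932, chromosome 5, 90490737 to 90508907, plus strand), the fetal relative of albumin, was also near 0 without inhibitor. Its M0 libraries were at 0.724, 0.441, 0.821 and 0.373 CPM, and with ONX-0914 at 6.10, 5.80, 5.53 and 6.12 CPM. In M1 cells the values were 0.446, 0.208, 0.0578 and 0.441 CPM, and 7.55, 7.44, 6.23 and 8.0 CPM with the inhibitor. In M2 cells they were 0.321, 0.550, 0.390 and 0.338 CPM, and 8.93, 8.04, 8.74 and 8.48 CPM with the inhibitor. The treated libraries of the 3 states lay within a narrow band, from 5.53 to 8.93 CPM. The log2 changes were 3.32 ± 0.201, 4.65 ± 0.243 and 4.41 ± 0.209 (SE) in M0, M1 and M2. Hepatocyte markers did not accompany Afp: the summed level of 8 of them (Alb, Apoa1, Ttr, Fgb, Ahsg, Apoh, Serpina1a and Cps1) was 0 to 0.277 CPM per library, and Serpina1a and Cps1 were at 0 in all 12 treated libraries. Alb, the neighbour and closest relative of Afp, had 7 counts over all 24 libraries.

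Kif1a (ENSMUSG00000014602, chromosome 1, 93015464 to 93101951, minus strand), the motor that carries synaptic vesicle precursors along axons, was the gene with the smallest rise in M1 cells. Its M0 libraries were at 1.93, 2.70, 2.13 and 2.32 CPM without and at 13.4, 12.5, 12.5 and 13.3 CPM with the inhibitor. In M1 cells it was already at 6.81, 6.58, 8.32 and 6.17 CPM, and reached 14.6, 13.2, 12.8 and 12.5 CPM. Treated M0 and treated M1 libraries overlapped, while untreated ones did not. In M2 cells the values were 2.94, 4.30, 4.20 and 3.18 CPM without and 17.5, 19.6, 16.9 and 19.1 CPM with the inhibitor. The log2 changes were 2.51 ± 0.122 in M0, 0.93 ± 0.11 in M1 and 2.32 ± 0.112 in M2 (SE), which put it at places 14, 623 and 43 by rise. The effect in M1 minus that in M0 was -1.58 ± 0.167 (SE) on the log2 scale, the only one of the 10 genes with a smaller effect in M1 than in M0.

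Mllt11 (ENSMUSG00000053192, chromosome 3, 95219135 to 95232171, minus strand), which encodes a protein reported to act with the transcription factor TCF7, had the largest excess of the M1 rise over the M2 rise. Its M0 libraries were at 6.03, 4.81, 6.18 and 5.51 CPM without and at 20.5, 15.9, 16.0 and 17.4 CPM with the inhibitor. In M1 cells it went from 12.2, 9.76, 14.1 and 13 CPM to 121.8, 122.0, 112.4 and 124.7 CPM. In M2 cells it went from 7.57, 6.70, 5.89 and 5.59 CPM to 29.5, 29.9, 26.8 and 30.1 CPM. Each treated M1 library was above every treated library of the other states. The log2 changes were 1.63 ± 0.108, 3.29 ± 0.0978 and 2.17 ± 0.103 (SE) in M0, M1 and M2, and the effect in M1 exceeded that in M0 by 1.66 ± 0.146 and that in M2 by 1.11 ± 0.142.

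Zwint (ENSMUSG00000019923, chromosome 10, 72654845 to 72674964, plus strand), which holds the ZW10 checkpoint complex at kinetochores, and Chpf2 (ENSMUSG00000038181, chromosome 5, 24586741 to 24594556, plus strand), a glucuronyltransferase of chondroitin synthesis, started from moderate levels. Zwint went from 38.5 ± 2.37 to 102.7 ± 6.12 CPM in M0 (mean ± SD, n = 4), from 60.8 ± 2.41 to 261.0 ± 2.27 CPM in M1 and from 34.9 ± 0.906 to 156.3 ± 5.28 CPM in M2. Chpf2 went from 62.1 ± 3.24 to 148.8 ± 9.92 CPM in M0, from 83.6 ± 8.54 to 321.6 ± 2.46 CPM in M1 and from 54.4 ± 2.34 to 208.1 ± 10.5 CPM in M2. Both had their highest libraries in treated M1 cells and their lowest in untreated M2 cells. Their log2 changes ran side by side: Zwint had 1.42, 2.10 and 2.16, and Chpf2 1.26, 1.94 and 1.94, in M0, M1 and M2 (SE 0.0520 to 0.0637). For neither gene did the effects in M1 and M2 differ by more than the SE of the difference, at -0.062 ± 0.072 for Zwint and 0.0073 ± 0.0880 for Chpf2.

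Trim6 (ENSMUSG00000072244, chromosome 7, 104218793 to 104235152, plus strand), a ligase that builds unanchored ubiquitin chains in the interferon response, had its own starting level in M1 cells. Its M0 libraries were at 1.79, 2.55, 1.5 and 2.11 CPM without and at 6.47, 6.04, 8.13 and 6.26 CPM with the inhibitor. In M1 cells it went from 6.62, 6.58, 8.03 and 7.62 CPM to 32.6, 34, 36.3 and 35.2 CPM, and in M2 cells from 1.93, 0.900, 1.99 and 1.06 CPM to 10.5, 12.5, 11.7 and 13.3 CPM. Untreated M1 libraries thus overlapped treated M0 libraries. The log2 changes were 1.76 ± 0.166, 2.25 ± 0.132 and 3.0 ± 0.166 (SE) in M0, M1 and M2.

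E2f6 (ENSMUSG00000057469, chromosome 12, 16810963 to 16839742, plus strand) and Dnmt3l (ENSMUSG00000000730, chromosome 10, 78041947 to 78063622, plus strand) both belong to systems that keep germline genes silent. E2f6 had the smallest rise in M0 and M2 of the 10 genes: its mean went from 29.1 ± 1.76 to 52.0 ± 3.52 CPM in M0, from 20.6 ± 1.78 to 76.3 ± 3.65 CPM in M1 and from 29.2 ± 1.19 to 76.4 ± 2.30 CPM in M2 (SD, n = 4). Treated M1 and treated M2 libraries of E2f6 overlapped. Dnmt3l was the least counted gene. Its M0 libraries were at 0.338, 0.294, 0.0966 and 0.166 CPM without and at 1.49, 1.18, 1.00 and 1.33 CPM with the inhibitor. In M1 cells it went from 1.02, 0.692, 0.578 and 0.818 CPM to 3.70, 6.30, 5.04 and 6.16 CPM, and in M2 cells from 0.0917, 0.150, 0.173 and 0.0482 CPM to 2.53, 2.11, 2.04 and 2.08 CPM. The untreated M2 libraries held 1 to 4 counts each, so its M2 log2 change of 4.16 ± 0.330 (SE) rests on 10 counts in the untreated group, and it ranged from 3.92 to 4.42 when M2 libraries were left out.

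**Figure D2:**
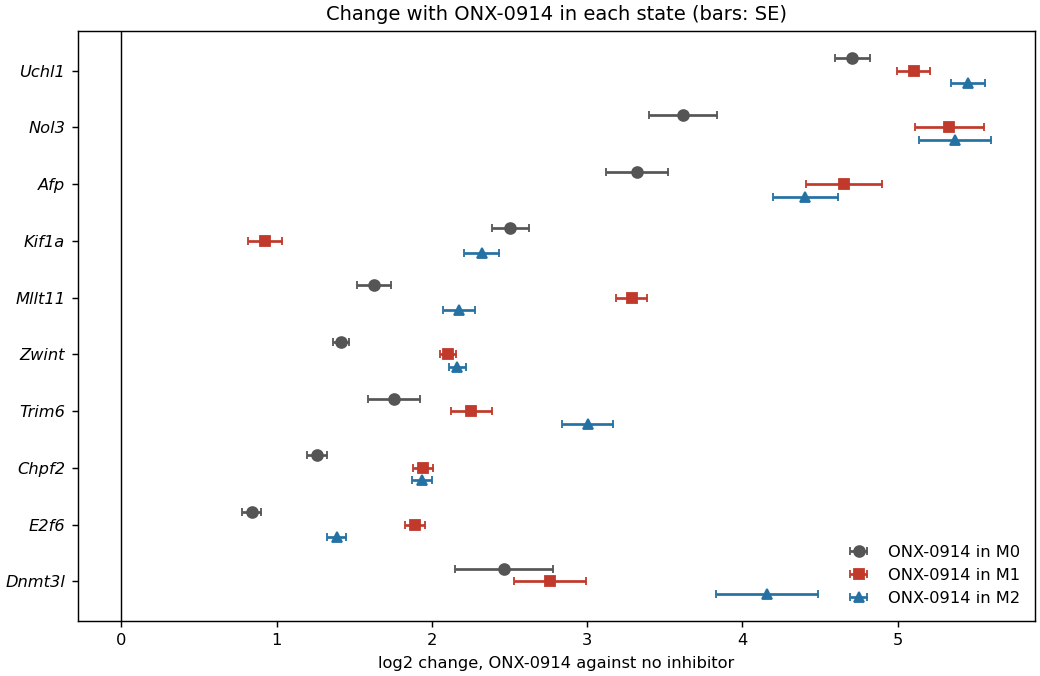
Log2 change with ONX-0914 for each of the 10 genes in M0, M1 and M2 cells. Points are the fitted values and bars their SE. The M0 circle is the lowest of the 3 points in 9 genes, and in Kif1a the M1 square, at 0.93, is the lowest.

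Across the 10 genes, the rise was smallest in M0 cells for 9 and in M1 cells for Kif1a. It was largest in M2 cells for 5 genes (Uchl1, Nol3, Zwint, Trim6 and Dnmt3l), in M1 cells for 4 (Afp, Mllt11, Chpf2 and E2f6), and in M0 cells for Kif1a. The difference between M1 and M2 effects was within its SE for Nol3, Afp, Zwint and Chpf2. So was that between M1 and M0 effects for Dnmt3l, at 0.30 ± 0.475. Over all genes tested, too, the smallest share was called in M0, at 21% against 44.3% in M1 and 36.4% in M2. How many of all genes had their smallest rise in M0 was not counted. In treated cells, all M2 libraries were above all M0 libraries for 10 genes, beside 23.5% of all genes tested, and all M1 libraries above all M0 libraries for 9, beside 33.7%. The treated M1 libraries were all above the treated M2 libraries for 7 genes, beside 29.3% of all genes. Afp and Kif1a had the opposite order, as did 34.1% of all genes, and the 2 groups overlapped in E2f6. The genes were chosen by their rise in these treated libraries. The counts are therefore a description, and their distance from the shares of all genes shows nothing beyond the choice. In bulk RNA, fewer cells with a transcript and less of it per cell cannot be told apart, so these levels do not say whether all cells of a culture took part.

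Per kb of exon length, which allows genes to be compared, the order of the 10 genes changed with the inhibitor. In untreated M0 cells Chpf2 was highest at 11.1 ± 0.580 CPM per kb (SD, n = 4), followed by Zwint at 8.69 ± 0.534, E2f6 at 5.13 ± 0.310 and Mllt11 at 2.36 ± 0.261. Uchl1 came next at 1.09 ± 0.218 CPM per kb. In treated M1 cells Uchl1 was first at 61.7 ± 4.23 CPM per kb, with Zwint at 58.9 ± 0.513, Chpf2 at 57.6 ± 0.441 and Mllt11 at 50.4 ± 2.25, so that the first 3 lay within the SD of Uchl1. The remaining 6 genes in treated M1 cells ran from E2f6 at 13.5 down to Kif1a at 1.42 CPM per kb, with Trim6 at 7.05, Nol3 at 5.08, Afp at 2.17 and Dnmt3l at 1.77.

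The polarized states without inhibitor were compared next, since these contrasts did not choose the genes, although they share the untreated libraries and the low starting levels with the ones that did. Nol3, Afp and Dnmt3l entered the fit only through their level with the inhibitor, so their untreated levels are described and not tested, and the counts below are over the other 7 genes. In M1 against M0 cells, 6 of the 7 were called higher (Uchl1, Kif1a, Mllt11, Zwint, Trim6 and Chpf2) and 1 lower (E2f6). Of all genes tested, 34.6% were called higher and 34.2% lower in this comparison. Trim6 had the largest difference, at 1.86 ± 0.170 (log2 ± SE, adjusted p = 1.67e-10 by edgeR), followed by Kif1a at 1.62 ± 0.132 (adjusted p = 1.59e-11). Mllt11 differed by 1.13 ± 0.114 (adjusted p = 1.17e-09), Uchl1 by 0.72 ± 0.163 (adjusted p = 0.000304), Zwint by 0.66 ± 0.0527 (adjusted p = 1.01e-11) and Chpf2 by 0.43 ± 0.0631 (adjusted p = 1.05e-06). E2f6, which rose with the inhibitor, was lower in M1 than in M0 cells by -0.50 ± 0.0658 (adjusted p = 1.72e-07). Dnmt3l had 49 counts over the 4 untreated M1 libraries, against 19 over the M0 and 10 over the M2 libraries, and its M1 libraries were above all untreated M0 and M2 libraries. Afp had 50, 18 and 34 counts and Nol3 41, 25 and 21 counts over the M0, M1 and M2 libraries, and in both genes the ranges of the 3 states overlapped.

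In M2 against M0 cells, 3 of the 7 genes were called, beside 18.7% of all genes called higher and 17.5% lower. Kif1a was higher by 0.69 ± 0.139 (log2 ± SE, adjusted p = 0.000266). Zwint was lower by -0.14 ± 0.0531 (adjusted p = 0.0358) and Chpf2 by -0.19 ± 0.0633 (adjusted p = 0.0174). The Zwint call was lost without any of 3 M0 libraries (replicates 1, 2 and 3) or 2 M2 libraries (replicates 1 and 4), with adjusted p up to 0.152, and with no count filter (adjusted p = 0.139), and the Chpf2 call without M0 replicate 4 (adjusted p = 0.0731) or M2 replicate 1 (adjusted p = 0.0683). Uchl1 had a value of 0.087 ± 0.167 (adjusted p = 0.735). Trim6 had -0.42 ± 0.209 (adjusted p = 0.128) and was called without M2 replicate 3 (adjusted p = 0.0403). Mllt11 and E2f6 had adjusted p of 0.222 and 0.954.

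In M1 against M2 cells, 6 of the 7 genes were called higher in M1 and E2f6 lower, beside 32.2% of all genes called higher and 34.4% lower. Trim6 was higher by 2.27 ± 0.179 (log2 ± SE, adjusted p = 7.25e-12), and Uchl1 by 0.64 ± 0.161 (adjusted p = 0.00107). E2f6 was lower by -0.50 ± 0.0658 (adjusted p = 1.46e-07).

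**Figure D3:**
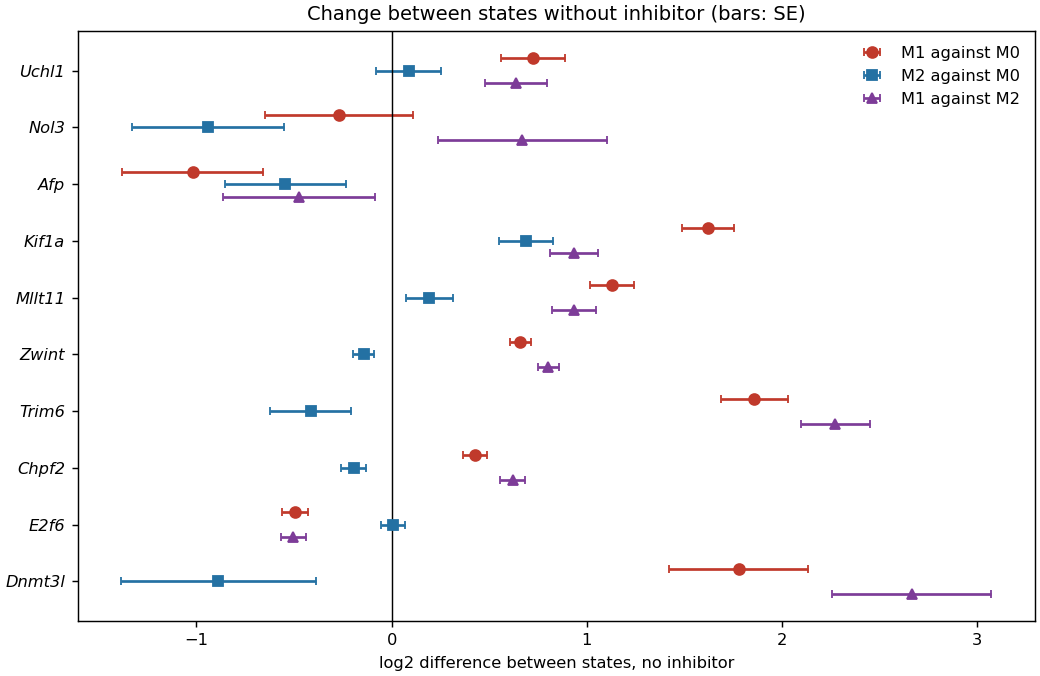
Log2 difference between the polarized states without inhibitor for the 10 genes, with bars of SE. Trim6, Dnmt3l and Kif1a lie farthest to the right in M1 against M0, and Afp, E2f6 and Nol3 lie left of 0 there. The points of Nol3, Afp and Dnmt3l rest on 1 to 17 counts per library and are shown without a test.

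Relatives of the 10 genes, 142 genes in 11 lists drawn up by family, complex or pathway, were tested for the same inhibitor contrasts, and 119 passed the filter. In M0 cells 10 of the 119 were called higher and 18 lower, in M1 cells 14 higher and 48 lower, and in M2 cells 21 higher and 33 lower. Over all genes tested the shares were 9.54% higher and 11.4% lower in M0, 16.6% and 27.7% in M1, and 17.6% and 18.8% in M2, and the counts of each list below are to be read beside them. Their median log2 changes were -0.026, -0.187 and -0.126, against the medians over all genes given above. Called higher in all 3 states were 7 genes, among them B4galt7, E2f3, Kif1b, Tet2 and Ubb, and called lower in all 3 were 15. How many of all genes were called in 1 direction in all 3 states was not counted. The 7 and 15 are therefore a description and no result about the relatives. The largest called rise of a relative in M0 was 0.65 (Chst15).

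Around Uchl1, Bap1 was the only called rise among the other 4 ubiquitin C-terminal hydrolases, in M1 (0.22 ± 0.0569) and M2 (0.31 ± 0.0569). Uchl3, its closest relative, had log2 changes of -0.03 ± 0.129 in M0 and 0.04 ± 0.167 in M1, and fell in M2 by 0.42 on the log2 scale (SE 0.132, adjusted p = 0.0134), a call lost without any of 3 libraries (adjusted p up to 0.0563). Uchl4 and Uchl5 were not called in any state, with values between -0.23 and 0.14. The stress-induced polyubiquitin gene Ubb rose in all 3 states, by 0.39 ± 0.118 (adjusted p = 0.0175) in M0, 0.69 ± 0.118 (adjusted p = 2.56e-05) in M1 and 1.05 ± 0.119 (adjusted p = 5.77e-08) in M2. The M0 call of Ubb was lost without either of 2 libraries (adjusted p up to 0.0795). Rps27a, which encodes a fusion of ubiquitin with a ribosomal protein, was not called.

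Around Nol3, edgeR called 0, 0 and 4 of 14 apoptosis genes higher in M0, M1 and M2 (among them Fas in M2, at 0.77 ± 0.0916) and 2, 11 and 3 lower. At an unadjusted p under 0.05, 1 was higher in M0 and 0 in M1, and DESeq2 called 0 in both. Bcl2l1, which encodes the survival protein BCL-XL, fell in each state, by 0.21, 1.09 and 0.81 on the log2 scale (adjusted p = 0.0206, 2.64e-13 and 1.39e-10). The M0 call of Bcl2l1 was lost without either of 2 libraries (adjusted p up to 0.107).

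Around Afp, of 8 albumin family and fetal liver genes, 4 were tested, among them the Afp repressors Zhx2 and Zbtb20, and edgeR and DESeq2 called 0 of them in each state, with 1, 0 and 1 at an unadjusted p under 0.05 in M0, M1 and M2. Around Kif1a, of 10 kinesin-3 motors and adaptors, Kif1b rose in all 3 states (0.36 ± 0.0651, 0.93 ± 0.0664 and 0.74 ± 0.0655), the M1 value equal to that of Kif1a to 2 decimals. In all, 1, 2 and 1 of them were called higher and 2, 6 and 4 lower in M0, M1 and M2, and Kif1c fell in all 3, by 0.40, 0.56 and 0.32 on the log2 scale. Around Mllt11, of 7 tested TCF factors and Wnt targets, edgeR called 0, 0 and 1 higher and 1, 3 and 3 lower in M0, M1 and M2. At an unadjusted p under 0.05, 1 was higher in M0 and 0 in M1, and DESeq2 called 0 higher in both. The higher call was Axin2 in M2 (0.63 ± 0.220), whose call was lost without any of 5 libraries (adjusted p up to 0.0743). Ctnnb1, which encodes beta-catenin, fell in all 3 states by 0.17, 0.35 and 0.17 on the log2 scale, and Tcf7l2 fell in M1 by 0.57 and in M2 by 0.55. Tcf7 fell in M1 by 1.5 on the log2 scale (SE 0.326, adjusted p = 0.000465), from 0.853 ± 0.149 to 0.296 ± 0.109 CPM.

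Around Zwint, 16 kinetochore and checkpoint genes were tested, of which edgeR called 0, 3 and 2 higher and 3, 4 and 6 lower in M0, M1 and M2. In M0, 1 was higher at an unadjusted p under 0.05 and 0 by DESeq2. Zw10, whose protein Zwint binds, rose in M1 (0.40 ± 0.0745, adjusted p = 8.05e-05) and M2 (0.29 ± 0.0690, adjusted p = 0.00139), as did Mis12, another kinetochore gene (0.51 ± 0.0741 and 0.45 ± 0.0737). Zwilch fell in M2 by 0.71 on the log2 scale (adjusted p = 0.0101), and Kntc1 was not called in any state. The checkpoint kinase gene Bub1b fell in all 3 states, by 0.40, 0.63 and 0.82 on the log2 scale, and Pmf1 by 0.58, 0.69 and 0.75. The M0 call of Bub1b was lost without either of 2 libraries (adjusted p up to 0.0577). Around Trim6, 12 of 13 listed genes were tested, and edgeR called 2, 1 and 5 higher and 0, 5 and 1 lower. The count lower in M0 was also 0 at an unadjusted p under 0.05 and by DESeq2. Trim30d rose in M0 (0.61 ± 0.140) and M2 (1.13 ± 0.137) but had 0.14 ± 0.116 in M1, where it stood at 271 CPM without inhibitor, and Trim34a and Trim5, the nearest tested genes to Trim6 on chromosome 7, were not called in any state.

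Around Chpf2, 17 genes of chondroitin sulfate synthesis were tested, of which 3, 1 and 2 rose and 7, 8 and 8 fell. Chpf, the closest relative, had log2 changes between -0.03 and 0.23 and was not called. B4galt7, an enzyme of the linkage region, rose in all 3 states (0.21 ± 0.0650, 0.74 ± 0.0671 and 0.48 ± 0.0650). Chst3, a sulfotransferase, fell in all 3, by 1.36, 1.16 and 2.48 on the log2 scale (adjusted p = 6.38e-05, 0.00899 and 1.82e-09), and Xylt1, the enzyme that starts the chain, by 0.44, 0.43 and 0.66. The M1 call of Chst3 was lost without M1 with ONX-0914 replicate 1 (adjusted p = 0.0501).

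Around E2f6 and Dnmt3l, 21 E2F and PRC1.6 genes, 14 germline genes and 10 genes of DNA methylation were listed. PRC1.6 is the repressive complex in which E2F6 works with MGA, MAX, PCGF6 and L3MBTL2. Of the 21 E2F and PRC1.6 genes 1, 3 and 2 were called higher and 1, 6 and 4 lower in M0, M1 and M2. E2f3 rose in all 3 states (0.34 ± 0.0668, 0.19 ± 0.0650 and 0.42 ± 0.0658), and Pcgf6 (0.29) and L3mbtl2 (0.18) rose in M1. The M1 call of E2f3 was lost in 2 of 24 fits with a library left out, that of L3mbtl2 in 10 and that of Pcgf6 in 13, in each case also without M1 replicate 2, and DESeq2 called neither L3mbtl2 (adjusted p = 0.0511) nor Pcgf6 (adjusted p = 0.0581). Max fell in M1 by 0.26 on the log2 scale (SE 0.0475, adjusted p = 6.85e-05) and rose in M2 by 0.16 (adjusted p = 0.0097), a call lost without M2 with ONX-0914 replicate 4 (adjusted p = 0.0517) and with no count filter (adjusted p = 0.0712). E2f1 fell in M1 and M2 by 0.39 and 0.35 on the log2 scale, Cbx3 by 0.59 and 0.50, and Hdac1 by 0.70 and 0.16, and Wdr5 fell in M0 and M1 by 0.20 and 0.17. The M2 call of Hdac1 was lost in 5 of 24 fits with a library left out, and in a fit of the M1 libraries only the M1 calls of E2f1 (adjusted p = 0.146), Cbx3 (adjusted p = 0.0895) and Wdr5 (adjusted p = 0.371) were lost. Mga was not called, with values from 0.04 to 0.18. E2f8 fell in M1 by 1.49 on the log2 scale (SE 0.139, adjusted p = 1.38e-09). Of the 14 germline genes, 13 did not pass the filter. Stag3, the most counted of these, had 107 counts over the 24 libraries, and Tuba3b, Sycp1 and Taf7l had 0. The tested one, Ddx4, had values of 0.23 ± 0.305, -0.34 ± 0.207 and 0.23 ± 0.197 and was not called. Of the 9 tested genes of DNA methylation 1, 1 and 1 were called higher and 2, 5 and 3 lower. Dnmt3a, the enzyme that Dnmt3l activates, fell in all 3 states by 0.41, 0.37 and 0.63 on the log2 scale (adjusted p = 1.40e-07, 1.97e-07 and 1.34e-11), and Tet3 also fell, while Tet2 rose by 0.29, 0.36 and 0.34. In M0 the Tet2 call was lost in 9 and the Tet3 call in 6 of 24 fits with a library left out, and the M2 call of Tet2 in 1.

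**Figure D4:**
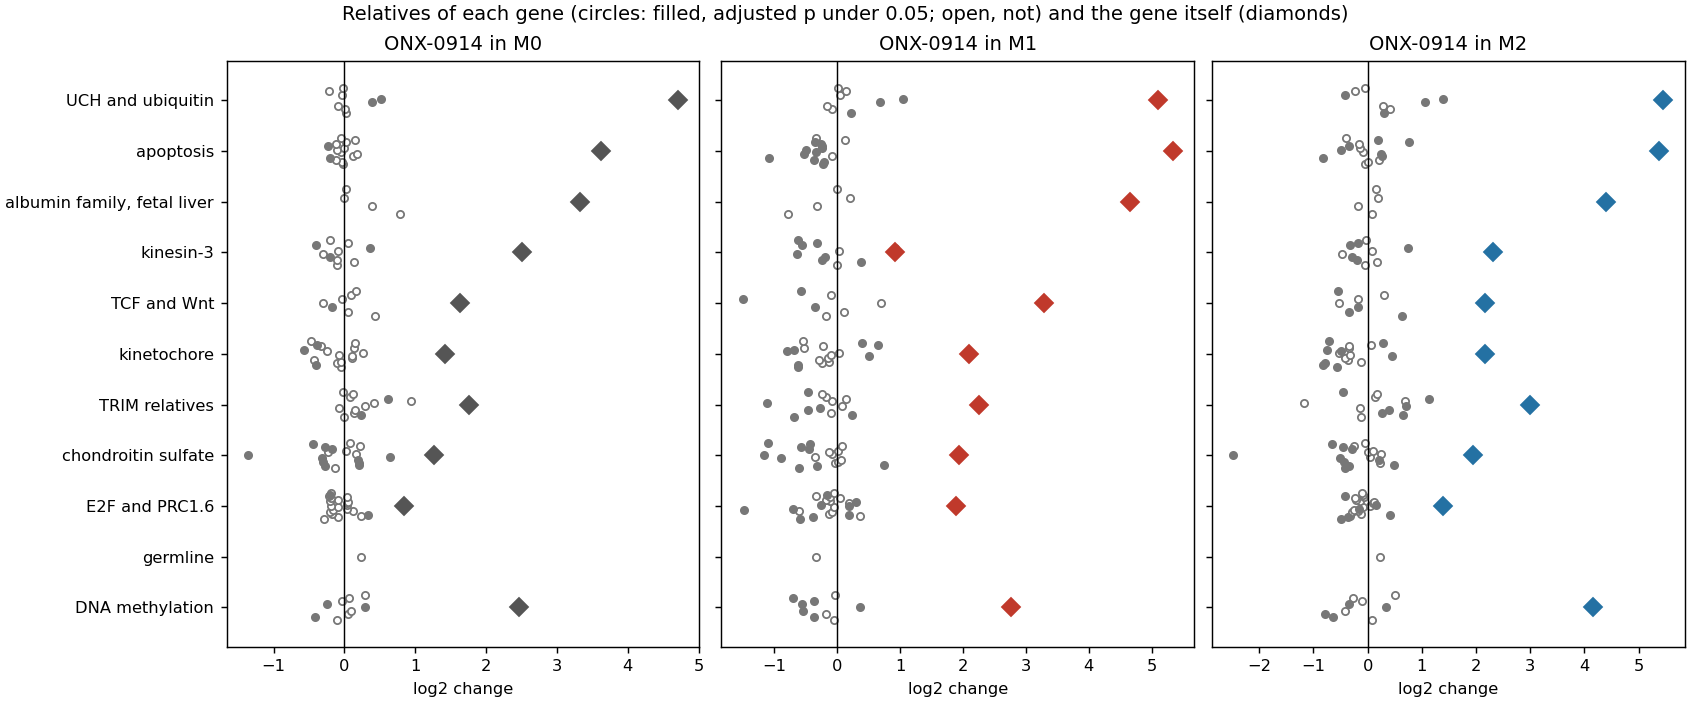
Log2 change with ONX-0914 of the tested relatives (circles, filled where the adjusted p is under 0.05) and of the gene each list was drawn up around (diamonds), by list and state. The germline list has no diamond. In every row with a diamond, it lies to the right of all circles, except in the kinesin-3 row in M1, where Kif1b and Kif1a both stand at 0.93. The genes drawn as diamonds were chosen for this rise and the relatives were not, so their order shows nothing beyond the choice.

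Genes near the 10 were tested in the same way. Within 50 kb of the 10 genes GENCODE M21 lists 59 other genes, and 24 of them were tested. With ONX-0914, 2 were called higher and 2 lower in M0, 6 higher and 5 lower in M1, and 4 higher and 3 lower in M2. These are 16.7%, 45.8% and 29.2% of the neighbours, near the 21%, 44.3% and 36.4% of all genes called in either direction. Without M1 replicate 2, 9 neighbours in place of 4 were called in M0, beside 4340 in place of 3079 over all genes. The strand setting of the counting is not given in the sources used here, so reads of genes that overlap on opposite strands cannot be told apart.

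Gm43279, an unclassified gene on the same strand that starts 1648 bp beyond the end of Uchl1, had 1, 1 and 0 counts over the 4 untreated M0, M1 and M2 libraries, and 12, 73 and 45 counts over the treated ones. Gm43279 passed the filter on low counts only through its level with the inhibitor, so its counts are described and not tested. It is nevertheless among the neighbours counted above as called higher in each state. Its call in M0 was lost without any of 4 libraries. Smarcd3, a chromatin remodelling gene on the opposite strand that shares 2466 bp of exon sequence with Chpf2, rose from 1.66 ± 0.279 to 3.19 ± 0.440 CPM in M0, from 1.70 ± 0.265 to 4.91 ± 0.350 CPM in M1 and from 1.71 ± 0.168 to 4.56 ± 0.239 CPM in M2 (adjusted p = 2.24e-05, 2.38e-09 and 5.52e-09). Hsf4, a heat shock factor gene that ends 295 bp before the start of Nol3 on the same strand, rose in M1 by 0.97 ± 0.234 (adjusted p = 0.00129) and in M2 by 1.06 ± 0.187 (adjusted p = 5.37e-05), and had 0.48 ± 0.184 in M0 (adjusted p = 0.0627).

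Cdc42se1 shares 38 bp of exon sequence with Mllt11 on the opposite strand. Its values were 0.01 ± 0.0478 in M0 and -0.00 ± 0.0479 in M2, and it fell in M1 by 0.16 on the log2 scale (adjusted p = 0.00843), a call lost with the libraries of the comparison alone (-0.064, adjusted p = 0.416) and with no count filter (adjusted p = 0.131). The gene 4931428F04Rik overlaps Nol3 over 1531 bp and was not called, with values of -0.23, -0.44 and -0.76. Aire, which overlaps Dnmt3l over 1664 bp, stayed at or under 0.0318 CPM as a mean in each group. Farther away, Gabpb2, 1219 bp from Mllt11, and Gpr35, 29073 bp from Kif1a, fell in all 3 states (the M0 call of Gpr35 was lost without M0 with ONX-0914 replicate 4, adjusted p = 0.0589), and Pfkl, 31864 bp from Dnmt3l, fell in M1 by 1.78 and in M2 by 0.45 on the log2 scale. Icosl fell in M1 by 0.77. D230025D16Rik near Nol3 rose in M1 by 0.49 and in M2 by 0.52, and Mindy1 and Prune1 near Mllt11 rose in M1 by 0.78 and 0.36.

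**Figure D5:**
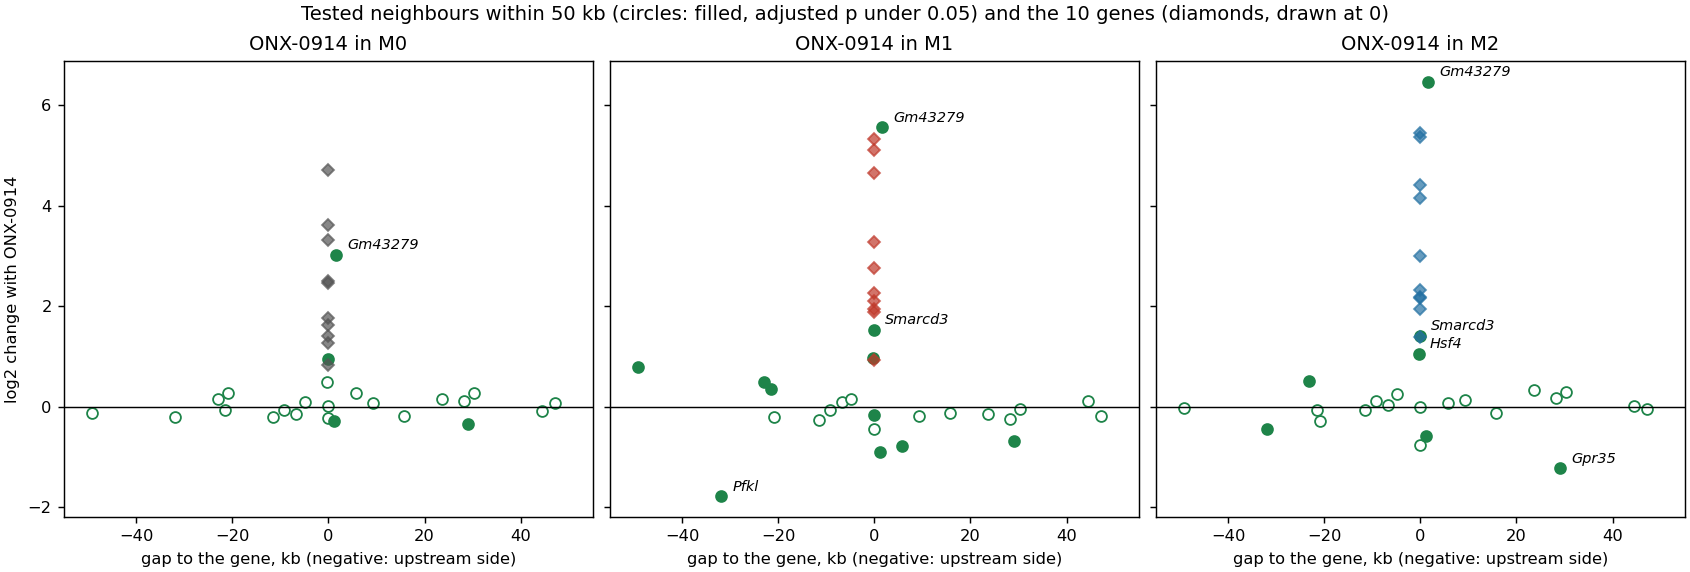
Log2 change with ONX-0914 of the 24 tested neighbours (circles, filled where the adjusted p is under 0.05) against their gap to the nearest end of the gene, with the 10 genes as diamonds at 0. Gm43279 stands highest, but its fitted value depends on the small count added by the fit, since it had 0 or 1 count over an untreated group. Most other circles lie near 0.

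Genes most like each of the 10 over the 24 libraries were looked up by Pearson's r of log2(CPM + 0.5), among 9940 tested genes with at least 5 CPM in a group. The libraries fall into 6 groups and share the inhibitor contrast, so r is a description. Closest to Uchl1 were Sod1 (r = 0.983), Sumf2 (0.980), Ube4b (0.978), Acadl (0.978) and Trmt1 (0.972). Sod1, the cytosolic superoxide dismutase, went from 61.2 ± 4.45 to 168.1 ± 8.40 CPM in M0, from 62.5 ± 15.1 to 259.0 ± 10.4 CPM in M1 and from 46.6 ± 2.25 to 198.9 ± 4.33 CPM in M2 (SD, n = 4). Sod1 and Sumf2 were also closest to Nol3. Trmt1 and Ubr3 were closest to Afp, Txnl1 and Ip6k2 to Mllt11, and Ide and Lrp8 to E2f6.

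Subunit genes of the 19S regulatory particle of the proteasome were among the nearest genes of 5 of the 10: Psmd2 for Zwint (r = 0.994) and for Chpf2 (r = 0.997), Psmd11 for Trim6 (0.981), Psmd1 for Kif1a (0.935) and Psmc1 for Dnmt3l (0.980). The other named genes there were Nsfl1c for Zwint, Nploc4 for Trim6, Ubfd1 for Chpf2, Pde8b for Kif1a and Taf7 for Dnmt3l. Genes chosen for a rise with the inhibitor have a high r with other genes that rise with it. How often other such genes have a 19S gene among their nearest was not counted, so the 5 of 10 is a description. Psmd2 went from 307.3 ± 9.98 to 501.3 ± 18.6 CPM in M0, from 368.3 ± 22.8 to 811.1 ± 9.92 CPM in M1 and from 290.3 ± 11.8 to 640.4 ± 23.9 CPM in M2. Its order of groups was that of Chpf2 and Zwint, with smaller folds. Among the 10 genes themselves r ran from 0.695 (Trim6 with E2f6) to 0.994 (Zwint with Chpf2), and Uchl1 was closest to Nol3 (0.985).

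Markers of 10 other cell types were summed in each library, and the part of these cells in the levels of the 10 genes was not tested. Neuron markers (9 genes) summed to 0.382 to 2.30 CPM and hepatocyte markers to the values given with Afp. In treated M1 cells, where Uchl1 was at 100.7 ± 6.91 CPM, the neuron markers summed to 0.771 to 1.05 CPM, against 0.382 to 0.900 CPM in untreated M1 cells. Tubb3 made up most of this sum, at means of 0.658 CPM with and 0.465 CPM without the inhibitor. Syt1, Nefl and Gap43 were at 0 in treated M1 cells. In untreated M1 cells Snap25 and Rbfox3 were at 0 as well. Germ cell and early embryo markers (8 genes) summed to 1.40 to 5.03 CPM, with Pou5f1 at 0 in every library. Several lists of immune cells were lower with the inhibitor. B cell markers (9 genes) summed to 106 to 113 CPM without and 60.6 to 66.6 CPM with it in M0, 77.3 to 89.5 and 39.2 to 44.4 CPM in M1, and 113 to 121 and 60.5 to 67.6 CPM in M2. Cd22 made up most of this sum, and the other 8 genes went from a mean of 25.1 to 7.78 CPM in M0, 20.5 to 5.63 CPM in M1 and 16.1 to 4.22 CPM in M2. T and NK cell markers (9 genes) summed to 2.60 to 3.38 CPM without and 1.64 to 2.37 CPM with the inhibitor in M0 and to 18.2 to 24 and 7.98 to 12.8 CPM in M1, and overlapped in M2. Lck made up most of this sum, at means of 19.2 and 10.1 CPM in M1. It was the only marker of this list with a mean of 1 CPM or more. Mast cell markers (6 genes) summed to 1.16 to 2.95 and 0.365 to 0.931 CPM in M0 and to 0.916 to 1.39 and 0.143 to 0.402 CPM in M2, and overlapped in M1. Neutrophil markers (7 genes) summed to 137 to 159 and 104 to 117 CPM in M1, and overlapped in M0 and M2. Csf3r made up most of this sum, at means of 137 and 103 CPM in M1, and Ly6g and S100a9 had 0 counts in every library. The sums of dendritic cell (6 genes), mesothelial (5 genes) and fibroblast markers (6 genes) overlapped in each state. Fibroblast markers had the largest sum outside macrophages, at 685 to 1033 CPM per library, with all 6 at 1 CPM or more in every group. Mesothelial markers summed to 34.9 to 145 CPM and dendritic cell markers to 2.32 to 10.1 CPM. The summed macrophage markers were lower with the inhibitor in each state, at 12636 to 14667 CPM without and 10586 to 11747 CPM with it in M0, and Lyz2 made up most of the sum. Without Lyz2 the other 8 genes overlapped in M0, at 2670 to 2860 and 2719 to 3091 CPM, and in M2, and were lower in M1, at 3804 to 5006 and 3260 to 3534 CPM.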

How the data were processed

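PolyA RNA of 24 macrophage libraries was sequenced in paired ends. The authors deposited 1 table of unnormalized counts, by Ensembl gene and library. The submitters' processing notes name FastQC 0.11.9, cutadapt 2.8, Bowtie2 2.2.5, Picard and mm10. The sources used here name no counting tool, strand setting or annotation release. Symbols and positions came from GENCODE M21 (GRCm38), which named 54495 of 54532 features; the other 37 held 0.00253% of the counts.

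The fit used edgeR 4.0.16 in R 4.3.3: filterByExpr over the 6 groups (14692 genes, 99.927% of the counts), TMM, and 1 quasi-likelihood model over all 24 libraries with 18 residual degrees of freedom, without a replicate block. Called means an adjusted p (Benjamini-Hochberg over all genes) under 0.05, and SE was taken as the size of the log2 change over the root of F. A library with 0 counts of a gene allows up to 3 counts at 95% confidence, at most 0.208 CPM, for counting error only. Alternatives were DESeq2 1.42.0 (Wald test, or its size factors in edgeR), a replicate block, no count filter, a filter of 1 CPM in 4 or more libraries, fits on only the libraries compared, and each library left out. The pipeline was tested on simulated data.

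The 10 genes, the lists and the naming rule were chosen with earlier results of these data known. Named were the 10 genes, up to 3 called genes with the largest change per list of relatives, any gene of the ubiquitin hydrolase, E2F and PRC1.6, germline and DNA methylation lists, all called neighbours within 50 kb, and the 5 (Uchl1) or 2 (others) genes of highest r. Genes named beyond this rule were picked after their values were seen, mostly to complete a count or to give the closest relative. Among them were Chst15, Chpf, Zhx2, Zbtb20, Zw10, Mis12, Zwilch, Kntc1, Trim34a, Trim5, 5033406O09Rik and overlapping genes. Some genes of the lists are not reported here.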

Additional observations from a re-analysis of the deposited data

Results flagged for a closer look

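Each of the 60 sets of 4 libraries (10 genes in 6 groups) was screened for a library far from the other 3, by the gap to the nearest library over the range, against Dixon's 95% critical value. Chance marks about 1 in 20 such sets, and 1 of 60 was marked: Dnmt3l in treated M2 cells, where replicate 1 was at 2.53 CPM and the next library at 2.11 CPM.

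Differences of the inhibitor's effect between states were tested (interaction terms of the edgeR fit, adjusted over all genes) for the 50 called relatives and neighbours under the naming rule, and 48 of 150 (32.0%) passed an adjusted p under 0.05, beside 13% of these differences over all genes tested. The 50 genes were named for a large called change in some state, so their share cannot be read as a result about them. Only the 11 differences of at least 1 on the log2 scale are listed, a limit that was set after the values were seen. Of these, 10 were more negative effects in M1 cells. Against M0, the effect in M1 differed by -1.47 ± 0.420 (SE, adjusted p = 0.0137) in Tcf7, -1.58 ± 0.130 (adjusted p = 1.74e-09) in Pfkl, -1.17 ± 0.116 (adjusted p = 3.38e-08) in Xylt2, -1.32 ± 0.192 (adjusted p = 1.20e-05) in E2f8 and -1.53 ± 0.308 (adjusted p = 0.000654) in Trim30b. Against M2, it differed by -1.33 ± 0.422 (adjusted p = 0.0353) in Tcf7, -1.32 ± 0.131 (adjusted p = 5.76e-08) in Pfkl, -1.04 ± 0.120 (adjusted p = 7.34e-07) in Xylt2, -1.13 ± 0.118 (adjusted p = 1.37e-07) in Fas and -1.23 ± 0.188 (adjusted p = 3.69e-05) in E2f8. The remaining one was Chst3, whose effect in M2 minus that in M0 was -1.12 ± 0.332 (adjusted p = 0.0421).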

How the results depend on the processing

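The counts of called genes, of called members of the set of 10, relatives and neighbours kept within 1.5 times the main count in 89 of 90 alternatives. The exception was relatives called with ONX-0914 in M1, 41 in place of 62 with the libraries of the comparison alone. With each library left out, members called in M2 against M0 ranged from 1 to 4 (3 with all libraries), the 1 without M2 replicate 1. Over all genes, 36.2% were called in that comparison. These member counts include Nol3, Afp and Dnmt3l, which entered the fit only through their level with the inhibitor. The counts therefore describe the processing only. Neighbours called in M0 ranged from 3 to 9 (4 with all), the 9 without M1 replicate 2. The log2 change of E2f6 in M2 against M0, 0.0063 with all libraries and not called, changed sign to -0.013 with the DESeq2 Wald test and with DESeq2 size factors, -0.028 with at least 1 CPM in 4 libraries, -0.0056 with the libraries of the comparison alone and -0.0039 with no count filter, and ranged from -0.035 to 0.049 over all settings. That of Uchl1 (0.087) ranged from -0.022 to 0.183. The cause was not tested. With the libraries of the comparison alone, Nol3, Afp and Dnmt3l did not pass the filter in the state comparisons. The other 7 members were then all called, both in M1 against M0 and in M1 against M2. The main fit called 68.8% and 66.6% of all genes in these comparisons. It called 9 and 8 of the 10 members, counts that include genes described above without a test. No inhibitor change of the 10 genes changed sign in any of the 30 settings. Deviations of same-numbered replicates of different groups had r from -0.052 to 0.108 (median 0.0031, over 0.1 in 2 of 60 pairs). Those of differently numbered replicates had r from -0.117 to 0.131 (median -0.0043, over 0.1 in 3 of 180 pairs). Of 24 libraries, 10 correlated best with their own number among the 4, more than chance gives on average. The numbers were not taken as pairs, though these values cannot exclude a weak pairing. With the replicate block, 3131, 6558 and 5390 genes were called with ONX-0914 in M0, M1 and M2, against 3079, 6514 and 5345. Levels of Nol3, Afp and Dnmt3l without inhibitor rest on 1 to 17 counts per library, which limits the precision of their changes.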
